A study of Mus musculus and Homo sapiens with 14 samples.

Results

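The BCL2 family genes of survival and death were followed across all 14 libraries, 10 genes in all: the survival genes Mcl1, Bcl2 and Bcl2l1, the pore-forming genes Bax and Bak1, and the BH3-only genes Bcl2l11, Bbc3, Pmaip1, Bmf and Bid. They were taken by symbol from the mouse count table, and by the same symbols in capitals from the human table. All 10 were found among the 26221 named mouse genes, and all 10 among the 27945 named human genes.

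BCL2 family proteins decide whether the outer membrane of the mitochondrion stays closed. MCL1, BCL2 and BCL-XL (the product of Bcl2l1) hold BAX and BAK in check, and BH3-only proteins such as BIM (Bcl2l11), PUMA (Bbc3), NOXA (Pmaip1), BMF and BID release that brake or activate the pore directly. Long-lived plasma cells are known for their need of MCL1, and myeloma cells differ in which of the survival proteins they lean on.

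The series was set up to ask what the transcription factor IRF4 does in established plasma cells. Splenic plasma cells were of donor origin, from C57BL/6 chimeras in which Irf4 flox/+ or Irf4 flox/- marrow had been combined with uMT marrow, which makes no mature B cells; both genotypes carried a floxed allele and both received tamoxifen on days 1, 2, 7 and 8, with harvest on day 14 (2 libraries each). The plasmacytoma line MPC-11 (mouse) and the myeloma line MM.1S (human) carried Cas9 with a guide RNA against IRF4 (labelled Irf4 -/-) or an empty vector, received doxycycline, and were sorted on day 3 (2 libraries per condition, called guide and empty vector here). Wild-type C57BL/6 follicular B cells from spleen (FoB) and plasma cells from bone marrow (BMPC) gave 1 library each. The BMPC labels also give sorting on day 3 after deletion, as for the lines, although the cells are called wild-type. Those of FoB give no such day. The labels name no Cre driver, guide sequence, clone or animal age. They do not say whether libraries of one group came from separate animals or cultures, so p-values measure only the spread between these libraries.

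Libraries held 18738283 to 27003585 counts. Plasma cell markers summed to 36351 and 33590 CPM (counts per unit of scaled library size, over all 10 mouse libraries) in the flox/- libraries. The flox/+ sums were 78874 and 98615, and that of FoB was 665. Jchain made up most of the splenic sums (31868 and 29085.5 against 69765 and 87916). Prdm1, Irf4 and Cd38 overlapped between the genotypes, and the other listed markers were lower in both flox/- libraries. Ms4a1 and Pax5 were at or near 0 in both cell lines. The follicular B cell list that holds them summed to 0.394 to 2.85 CPM in MPC-11. In MM.1S, scaled over the 4 human libraries, it summed to 43.2 to 77.1, with CR2 at 33.9 to 58.5 and BACH2 at 5.19 to 18.6. Guide libraries held less of the targeted transcript in MM.1S (142 and 191 CPM against 489 and 434) and in MPC-11 (276 and 146 against 467 and 496), while the libraries labelled flox/- (82.6 and 99.8) did not stand below those labelled flox/+ (114 and 53.8). A direction drawn from the splenic comparison therefore rests on the genotype labels. Both flox/- libraries also held more transcripts of other cells: macrophage markers summed to 8109 and 774 CPM against 581 and 230, T cell markers to 176 and 454 against 15.2 and 30.0, and those of NK cells to 47.6 and 131 against 13.6 and 21.9. Follicular B cell markers summed to 410 and 671 against 227 and 244, and erythroid markers to 827 and 44.1 against 42.2 and 4.87. The part of these cells, and of the lower plasma cell marker sums, in the splenic comparison was not tested. The immunoglobulin share of counts was 56.3% and 52.8% in flox/-, and 72.2% and 73.4% in flox/+.

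Which of the 3 survival genes Mcl1, Bcl2 and Bcl2l1 was most abundant differed between the cells. Levels of different genes are compared here per length, from the FPKM values (fragments per unit of transcript length and of library depth) that the authors deposited on a log2 scale, and no test is attached to them. Mcl1 was the highest of the 3 survival genes in all 10 mouse libraries, and BCL2L1 was the highest in all 4 MM.1S libraries. Mcl1 made up 89.4% of the summed FPKM of Mcl1, Bcl2 and Bcl2l1 in FoB and 84.3% in BMPC. In MPC-11 its share was 92.0% and 90.7% with the empty vector and 96.4% and 95.2% with the guide. In the splenic plasma cells it was lower, 70.9% and 54.4% with flox/+ and 61.4% and 68.5% with flox/-, and Bcl2 held 24.7% to 35.8% there. In MM.1S, BCL2L1 stood at 85.4 and 71.9 FPKM with the empty vector and 92.5 and 94.4 with the guide, and held 72.0% to 77.7% of the sum. MCL1 in the same 4 libraries stood at 30.6, 19.4, 24.7 and 31.2 FPKM and BCL2 at 2.65, 1.23, 1.98 and 1.61. Other survival genes, among them Bcl2a1b, were left out of these sums. Bcl2a1b stood at 39.0 FPKM in FoB, 5.58 in BMPC, 18.5 to 38.1 in splenic plasma cells and 0.190 to 0.218 in MPC-11.

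**Figure D1:**
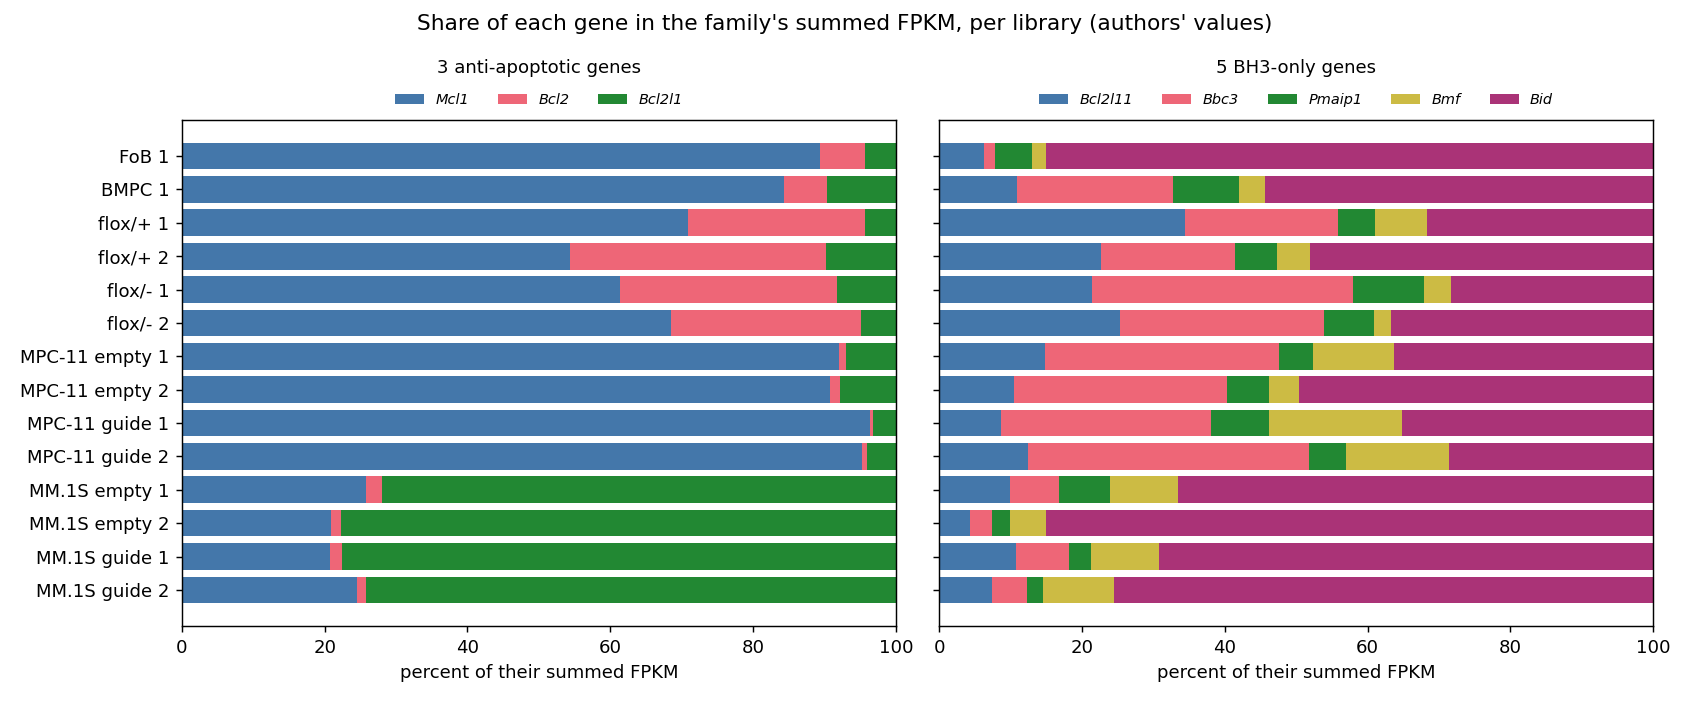
Each bar is 1 library, and its segments give the percent of the summed FPKM (the authors' values) held by each of 3 survival genes (left) or 5 BH3-only genes (right). BCL2L1 holds 72.0% to 77.7% of the left bar in MM.1S, Bcl2 holds 24.7% to 35.8% in splenic plasma cells, and Bid is the widest segment of the right bar in FoB.

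Among the BH3-only genes, Bid held 85.0% of the summed FPKM in FoB and 66.5% to 85.0% in MM.1S. In splenic plasma cells no BH3-only gene held more than 48.1%; Bcl2l11 held 21.4% to 34.4% there and Bbc3 18.7% to 36.5%. Bmf held 11.4% and 4.23% in MPC-11 with the empty vector, and 18.7% and 14.3% with the guide. Of the pore formers, BAK1 was at 61.0 to 67.9 FPKM in MM.1S, above BAX at 45.0 to 53.5. In all mouse libraries Bak1 was below Bax, with 0.0566 to 8.06 against 52.4 to 261 FPKM.

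Among the survival genes, Bcl2 had the widest range across the mouse cells. Scaled over all 10 mouse libraries, it stood at 236 and 301 CPM in flox/+ and 204 and 231 in flox/- plasma cells, at 45.8 in BMPC and 36.3 in FoB, at 9.67 and 14.1 in MPC-11 with the empty vector and at 4.83 and 8.03 with the guide. The splenic libraries were all above the others, and the MPC-11 libraries all below. The 2 splenic genotypes and, in MPC-11, the 2 conditions were neighbours in that order. Mcl1 moved over a much narrower range, from 187 CPM in a flox/- library to 599 in an MPC-11 guide library, with FoB at 241 and BMPC at 356. The Mcl1 values of the 2 splenic genotypes lay within each other's spread (310 and 197 against 187 and 263). Bcl2l1 was at 6.54 CPM in FoB, 21.9 in BMPC, and 11.7 to 24.9 in the other mouse libraries. Bid was highest in an MPC-11 guide library (86.4 CPM) and FoB (73.5) and lowest in a flox/- library (33.2), and Bax was at 65.7 to 119 in splenic plasma cells against 22.7 to 34.5 in MPC-11. Bbc3 was at 0.992 CPM in FoB and 14.3 in BMPC, at 19.99 to 44.1 in splenic plasma cells and 43.3 to 80.2 in MPC-11, the widest range among the BH3-only genes. Bcl2l11 was at 14.7 CPM in FoB and 18.4 in BMPC, below all splenic libraries (65.5 to 138) and all MPC-11 libraries (38.3 to 64.6). Bmf was at 3.59 in FoB, 5.59 in BMPC, 8.89 to 24.6 in the splenic libraries, and 13.4 and 36.6 against 68.5 and 110 in the control and guide libraries of MPC-11. In bulk RNA, fewer cells of a type and less RNA per cell cannot be told apart.

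**Figure D2:**
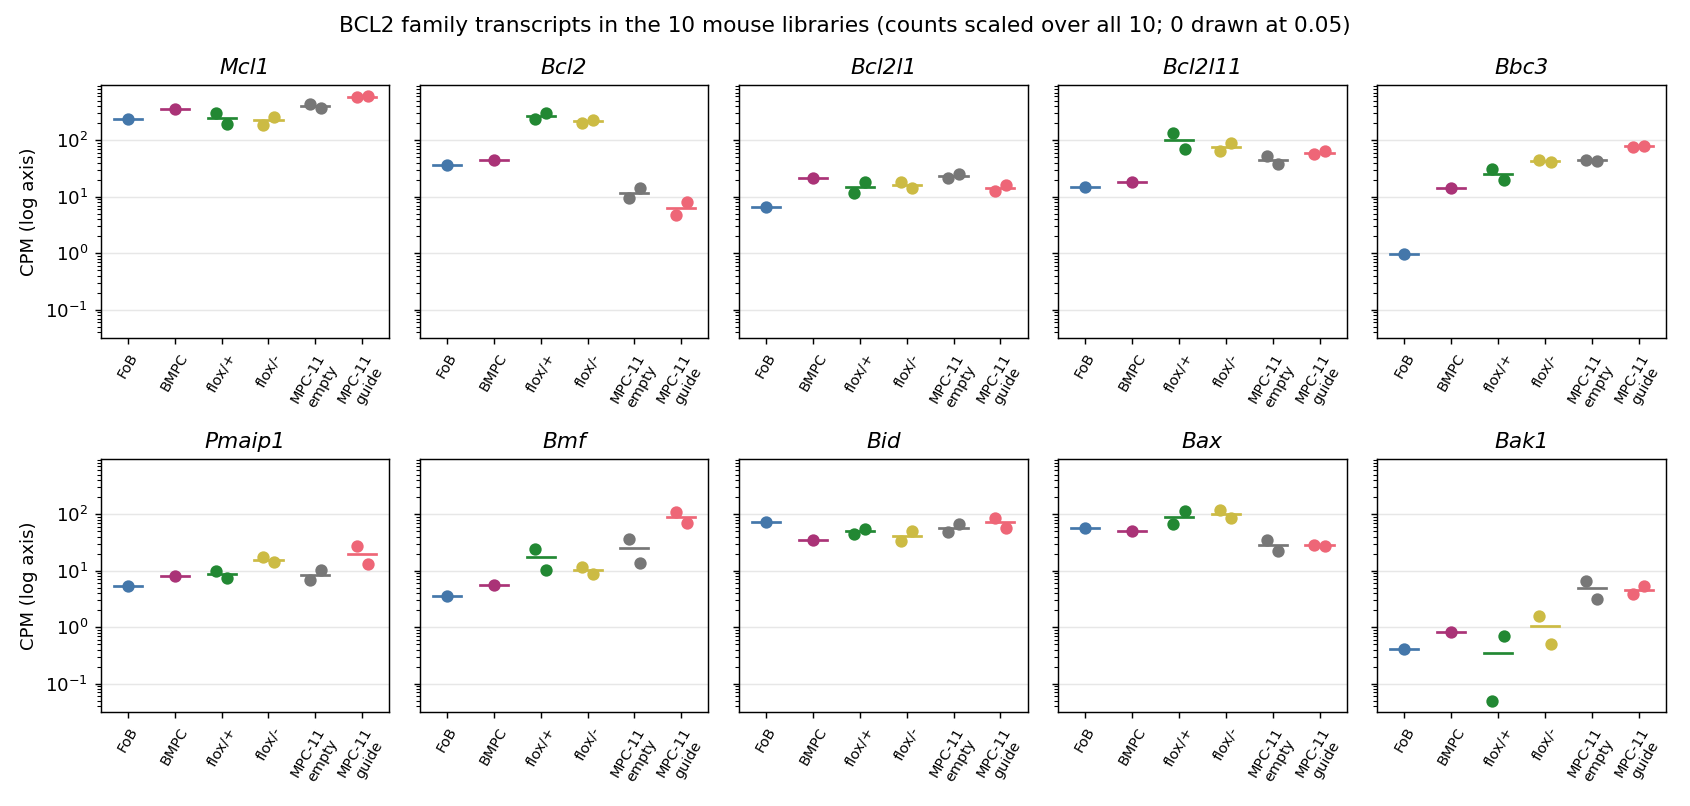
Each panel is 1 gene; points are single mouse libraries in CPM on a log axis, scaled over all 10 libraries, and short lines are group means. Bcl2 spans 4.83 to 301 CPM, whereas Mcl1 stays between 187 and 599.

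The tumour line was set against primary plasma cells by comparing MPC-11 with the empty vector and the flox/+ splenic plasma cells, 2 libraries each. Bcl2 and Bax were lower in MPC-11 in edgeR's quasi-likelihood test (adjusted over all genes tested, threshold 0.05): 2 of 10 members were called, both lower, where 27.7% of 11465 genes were called and 15.6% were called lower. Scaled within these 4 libraries, Bcl2 stood at 8.34 and 12.8 CPM in MPC-11 against 203 and 273 in the flox/+ libraries. It was 22.5-fold lower (log2 -4.49 ± 0.48, SE, 2 libraries a side; edgeR adjusted p = 8.78e-04, and 6.05e-04 to 0.00825 without each library in turn). Bax, the pore former, stood at 29.8 and 20.6 CPM against 56.4 and 105. Its log2 fold change was -1.68 ± 0.47 (edgeR adjusted p = 0.0370). That call ended without flox/+ library b (-1.15; adjusted p = 0.181), without empty vector library 1 (-1.95; 0.101) and without empty vector library 2 (-1.35; 0.194). T cell markers summed to 15.2 and 30.0 CPM in the flox/+ libraries and to 0.469 and 0 in MPC-11. Follicular B cell markers summed to 227 and 244 against 1.01 and 0.394, those of NK cells to 13.6 and 21.9 against 0 and 0, and erythroid markers to 42.2 and 4.87 against 0.108 and 0. The macrophage sums went the other way, at 581 and 230 against 1241 and 1321.5. Cd68 alone stood at 49.7 and 30.0 against 1140 and 1263. Csf1r, Adgre1, Lyz2, C1qa, C1qb, C1qc and Vcam1 were detected in both flox/+ libraries and were at 0 in both MPC-11 libraries. The part of these cells in the Bcl2 and Bax differences was not tested.

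The other 8 members did not pass between the line and the primary cells. Bcl2l11 was lower in both MPC-11 libraries (45.1 and 34.8 CPM against 118 and 62.8; log2 -1.18 ± 0.45, edgeR adjusted p = 0.100). Mcl1, Bcl2l1, Bbc3 and Bak1 were higher in both, with log2 fold changes of 0.70 ± 0.41, 0.63 ± 0.55, 0.81 ± 0.44 and 3.75 ± 1.56 and edgeR adjusted p-values of 0.250, 0.451, 0.230 and 0.121. Bak1 had 0 and 8 counts in the flox/+ libraries against 180 and 121, so its value rests on few reads; without flox/+ library b it passed. In all, 7 of 10 members separated the groups, where 66.5% of genes did. Tumour origin, culture, vector, strain, treatment with tamoxifen or doxycycline, and the floxed allele cannot be told apart in this comparison. Scaled to library size alone the median of all genes moved to 1.86, and relative to it Bcl2 at -2.55 and Bax at 0.20 were still lower while Mcl1 stood at 2.55.

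The 2 wild-type reference libraries compare BMPC with FoB, with no replicate and therefore no test; a member is counted when it lay 2-fold or more apart. Bbc3, Bcl2l1 and Bak1 were higher in BMPC by that measure and no member was lower (3 and 0 of 10, where 25.6% and 22.7% of 12273 genes were). Bbc3, which encodes PUMA, stood at 14.3 CPM in BMPC against 0.953 in FoB, 15.0-fold higher (log2 3.91, counting interval 3.40 to 4.45). Bcl2l1 stood at 21.9 against 6.28 CPM (log2 1.80, 1.54 to 2.06). For Bak1, with 9 and 16 counts, the interval of -0.31 to 2.32 spans 0. Bid fell just short of the limit, at 35.3 against 70.7 CPM (log2 -0.9996), and by the authors' log2 FPKM Bid took the place of Bak1 among the 3. Mcl1 (0.62), Bcl2 (0.39) and Bcl2l11 (0.38) fell further short of it. These intervals cover counting error only and are exact binomial, at 95%. Neutrophil markers summed to 529 CPM in BMPC against 9.56 in FoB, and their part in these values was not tested. Scaled to library size alone, where immunoglobulin takes 69.8% of BMPC counts, the median of all genes moved to -1.96 and the count turned to 1 member higher, Bbc3 (1.99), and 7 lower, where 11.6% and 73.0% of genes were. Bcl2l1 stood at -0.11 and Bak1 at -0.86 on that scale, and the other 7 were the lower ones.

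In splenic plasma cells, no member was called between Irf4 flox/- and flox/+, either by edgeR (0 of 10, where 0.00% of 11887 genes were) or by DESeq2 (0 of 10, where 5.34% were). At an unadjusted p under 0.05 edgeR called 0 of 10 as well, where it called 12.5% of all genes. Among the survival genes, Mcl1 stood at 116 and 165 CPM with flox/- against 198 and 122 with flox/+, so that the groups overlapped. Its log2 fold change was -0.18 ± 0.38 (SE), with a 95% interval of -1.14 to 0.77. Bcl2 stood at 127 and 145 against 151 and 186. These groups did not overlap, by a small margin, and the log2 fold change of -0.31 ± 0.30 did not pass (edgeR adjusted p = 0.804). Bcl2l1 stood at 11.2 and 8.87 against 7.49 and 11.3 (0.10 ± 0.49).

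Of the BH3-only genes in the spleen, Bbc3 and Pmaip1 were higher in both flox/- libraries. Bbc3 stood at 27.5 and 25.9 CPM against 19.9 and 12.4 (log2 0.73 ± 0.39; edgeR adjusted p = 0.578). Pmaip1, which encodes the MCL1-binding protein NOXA, stood at 10.8 and 8.75 against 6.38 and 4.61 (0.83 ± 0.53; adjusted p = 0.660). In all, 3 of 10 members separated the groups, where 44.1% of genes did, so the share was not above that of other genes. Bcl2l11 (40.8 and 55.5 against 87.8 and 42.8), Bmf (7.27 and 5.58 against 15.7 and 6.41) and Bid (20.7 and 31.4 against 28.5 and 33.5) overlapped between genotypes. For Bcl2l11 and Bmf, flox/+ library a was far above the other 3. Bax stood at 74.0 and 53.6 CPM against 41.9 and 71.7 (0.17 ± 0.39). Bak1 was near the limit of detection, with 32 and 10 counts against 0 and 8, and its interval of -2.92 to 6.09 allows almost any change. The median over the 10 members was -0.04, beside 0.09 over all genes. Scaled to library size alone, all genes moved to a median of 0.98, and 5 members turned from lower to higher (Mcl1 0.72, Bcl2 0.60, Bcl2l11 0.45, Bmf 0.07, Bid 0.67), each still below that median.

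In MPC-11, 4 of the 5 BH3-only genes had higher values in both libraries with the Irf4 guide than in both controls, where 16.9% of all genes were separated that way, and Bmf lay furthest apart. No member was called by edgeR (0 of 10, where 0.0187% of 10670 genes were), and DESeq2 called 1, Bmf (1 of 10, where 1.49% of genes were). At an unadjusted p under 0.05, edgeR gave 3 of 10 higher and 0 lower, Bmf, Bbc3 and Pmaip1, where 3.49% and 2.56% of genes were. Bmf, a BH3-only protein held at the cytoskeleton in healthy cells, reached 176 and 112 CPM in the guide libraries and 57.8 and 22.0 in the controls. Both guide libraries were higher than both controls, which differed widely between themselves. The log2 fold change was 1.85 ± 0.51 (SE, 95% interval 0.64 to 3.06; edgeR adjusted p = 0.528, DESeq2 adjusted p = 0.0259). It was 2.71 without empty vector library 1 and 1.34 without empty vector library 2, and the adjusted p over the 12 alternatives ran from 0.0259 to 0.969.

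Bbc3 showed the tightest separation in MPC-11. It stood at 121 and 131 CPM with the guide against 71.8 and 71.0 (log2 0.82 ± 0.29; edgeR adjusted p = 0.664, DESeq2 adjusted p = 0.291). Pmaip1 stood at 43.2 and 21.5 against 10.6 and 16.8 (1.24 ± 0.52; edgeR adjusted p = 0.814). Its lower guide library lay close to the higher control, and the value was 0.65 without guide library 1. Bcl2l11 stood at 91.4 and 105 against 82.5 and 62.7 (0.44 ± 0.32; adjusted p = 1.00). Bid, which caspase-8 cleaves to reach mitochondria, stood at 138 and 92.1 against 75.6 and 111 and overlapped (0.30 ± 0.36).

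**Figure D3:**
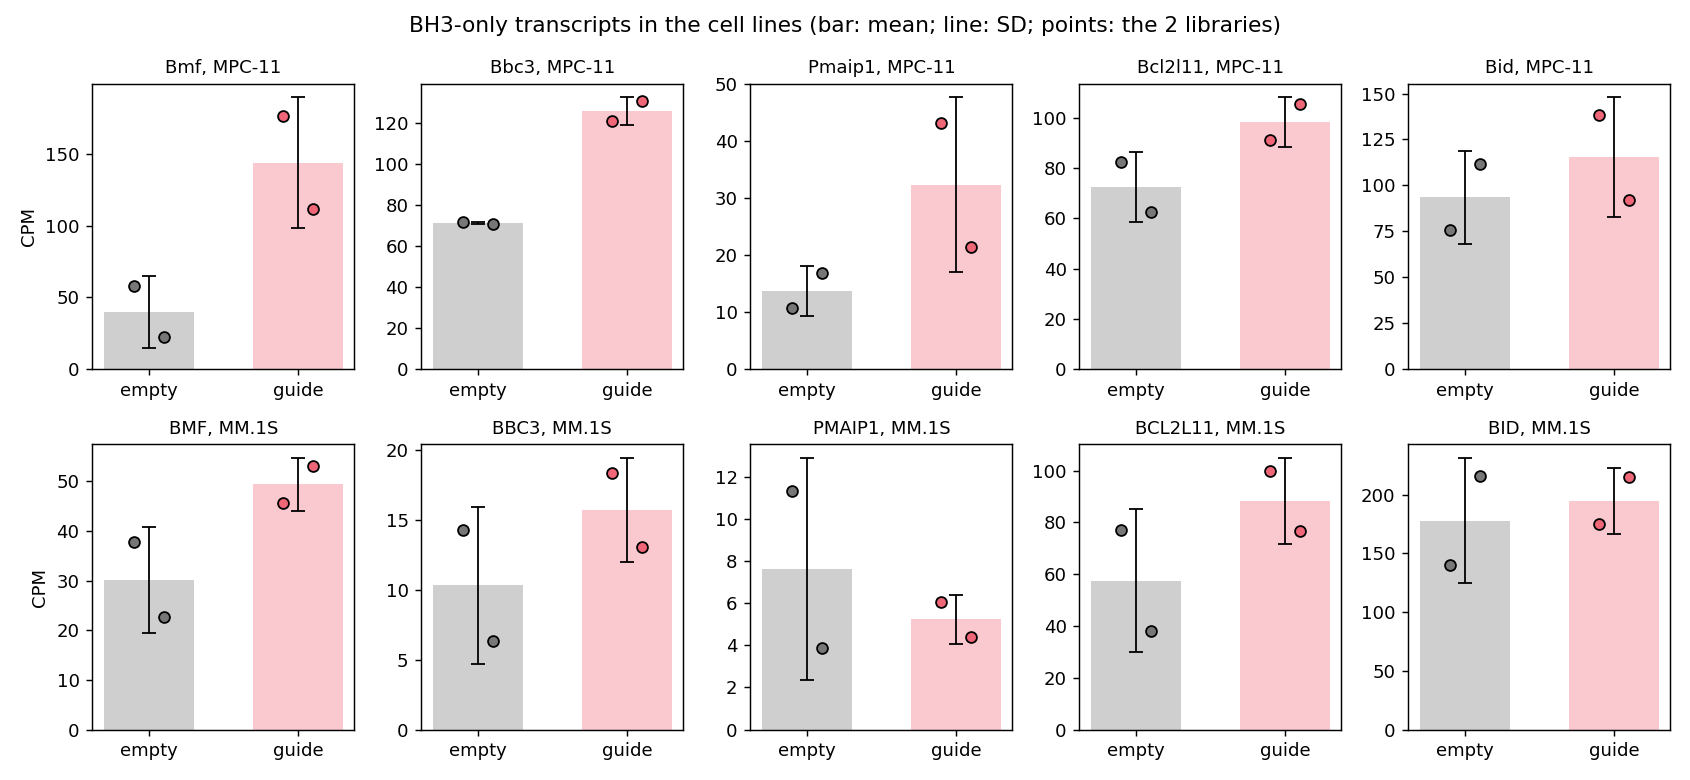
BH3-only transcripts in MPC-11 (top) and MM.1S (bottom), in CPM scaled within each line; points are libraries, bars means and lines SD of 2. Bmf and BMF lie higher in both guide libraries than in both controls in each line, and Bbc3, Pmaip1 and Bcl2l11 do so in MPC-11.

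The survival genes of MPC-11 did not go one way. Mcl1 stood at 945 and 978 CPM with the guide against 694 and 624, both above both controls (log2 0.55 ± 0.27; edgeR adjusted p = 0.926). Bcl2l1 stood at 20.04 and 26.7 against 33.7 and 40.9 (-0.68 ± 0.39; adjusted p = 0.998) and Bcl2 at 7.74 and 13.1 against 15.2 and 23.1 (-0.88 ± 0.55; adjusted p = 1.00), both below both controls. None of these passed. Groups did not overlap in 7 of 10 members, 5 higher and 2 lower, where 16.9% of genes were separated as higher and 16.5% as lower (33.5% in all). Bax (45.4 and 45.0 against 54.4 and 37.2; -0.02 ± 0.37) and Bak1 (6.08 and 8.83 against 10.2 and 5.22; -0.05 ± 0.70) overlapped. The median over the members was 0.37, beside -0.02 over all genes. The immunoglobulin share was 32.8% and 16.7% with the empty vector against 30.5% and 29.7% with the guide, so empty vector library 2 stood apart.

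Promoter sequence is shown for Bmf, Bbc3 and Bcl2l11, which are 3 of the 4 BH3-only genes with higher values in both guided MPC-11 libraries; the promoter of Pmaip1 was not analysed here. Windows of 300 bases around the annotated starts were searched for the other 9 members (16 windows, RefSeq, GRCm38.p6, the same assembly as mm10). Neither an IRF response element (GAAA, 2 bases of any kind, GAAA; in 3.44% of 32851 windows of all genes) nor an ETS-IRF composite element (GGAA, 2 bases of any kind, GAAA; 2.72%), searched on both strands and free to overlap, occurred in any of the 16. The cAMP response element TGACGTCA (1.79%) did not occur either. The FOXO element GTAAACA (3.65%) occurred in 1 window of Bcl2l11 and 1 of Bbc3, and the E-box CACGTG (7.15%) in 1 window of Bbc3 and 1 of Bax. In the Bak1 window all 250 bases upstream of the start lay in the gene's own exons. The same held for the Bcl2l1 windows at bases 152828440 to 152828739 and 152830668 to 152830967 of chromosome 2. A match is a string of letters, not a bound site. The 250 bases upstream of the start follow, 5′ to 3′ on the gene's strand, with a FOXO element on either strand in capitals. The Bbc3 start shown is an internal one, inside the annotated gene. All 3 genes have other annotated starts that were searched and are not shown. For Bcl2l11 and Bbc3 the start with the FOXO element was chosen.
Bcl2l11 (chr2:128125788-128126037, plus strand): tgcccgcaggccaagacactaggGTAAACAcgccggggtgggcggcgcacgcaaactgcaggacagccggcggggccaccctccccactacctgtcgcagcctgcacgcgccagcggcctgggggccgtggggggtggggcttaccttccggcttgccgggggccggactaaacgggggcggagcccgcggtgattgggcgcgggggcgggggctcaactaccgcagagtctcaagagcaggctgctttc
Bbc3 (chr7:16310011-16310260, plus strand): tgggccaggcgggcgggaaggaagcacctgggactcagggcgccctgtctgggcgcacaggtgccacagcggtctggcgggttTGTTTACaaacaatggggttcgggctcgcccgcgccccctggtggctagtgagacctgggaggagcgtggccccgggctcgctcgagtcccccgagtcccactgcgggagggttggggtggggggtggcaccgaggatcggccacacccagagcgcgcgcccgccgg
Bmf (chr2:118549687-118549936, minus strand, no match): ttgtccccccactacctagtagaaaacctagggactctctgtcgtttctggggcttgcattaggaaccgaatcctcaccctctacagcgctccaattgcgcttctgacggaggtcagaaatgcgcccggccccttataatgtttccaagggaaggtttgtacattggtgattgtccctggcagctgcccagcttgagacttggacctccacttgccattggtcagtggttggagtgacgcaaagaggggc
The element begins at base -227 in Bcl2l11, on the plus strand, and at base -167 in Bbc3, on the minus strand, counted from the annotated start. In mm10 (GENCODE M21) Bcl2l11 (Entrez 12125) spans bases 128126038 to 128162547 of chromosome 2 and Bmf (171543) bases 118528757 to 118549687 of the same chromosome. Bbc3 (170770) spans bases 16308393 to 16318205 of chromosome 7, Bcl2 (12043) bases 106538178 to 106714274 of chromosome 1 and Mcl1 (17210) bases 95658788 to 95663176 of chromosome 3.

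In MM.1S, no member was called by edgeR (0 of 10, where 0.00788% of 12696 genes were) or by DESeq2 (0 of 10, where 2.95% were), and at an unadjusted p under 0.05 edgeR gave 0 higher and 0 lower, where 5.42% and 4.58% of genes were. BMF was the member closest to the threshold. It reached 45.6 and 53.1 CPM in the guide libraries and 37.8 and 22.6 in the controls, both guide libraries being higher (log2 0.71 ± 0.31, SE; 95% interval -0.04 to 1.46; edgeR adjusted p = 0.525). BCL2L11 stood at 100 and 76.6 against 77.2 and 38.0, overlapping by a small margin (0.62 ± 0.36; adjusted p = 0.683). The 2 empty vector libraries differed from each other in these genes: library 2 was the lower for BMF, BCL2L11, BBC3, PMAIP1, BCL2 and MCL1. Without empty vector library 1 the log2 fold changes were 1.22 for BCL2L11 and 1.13 for BMF. Without empty vector library 2 they stood at 0.17 and 0.37.

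BBC3 stood at 18.3 and 13.04 CPM with the guide against 14.3 and 6.33 in MM.1S (0.60 ± 0.48), and PMAIP1 at 6.06 and 4.39 against 11.3 and 3.89 (-0.54 ± 0.64). Both overlapped between conditions. The survival genes had small log2 fold changes: BCL2L1 stood at 268 and 281 CPM against 252 and 222 (0.21 ± 0.19; 95% interval -0.23 to 0.66), MCL1 at 100 and 128 against 123 and 80.2 (0.17 ± 0.28; -0.50 to 0.83) and BCL2 at 15.6 and 12.6 against 20.9 and 8.61 (-0.07 ± 0.47; -1.20 to 1.07). The intervals of BCL2L1 and MCL1 leave out a 2-fold change in either direction. BAX stood at 68.9 and 64.2 against 58.1 and 61.2 (0.16 ± 0.22), BAK1 at 150 and 143 against 154 and 159 (-0.10 ± 0.19) and BID at 175 and 215 against 140 and 216 (0.13 ± 0.26). Groups did not overlap in 4 of 10 members, where 41.3% of genes were separated. The median over the members was 0.16, beside 0.01 over all genes.

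**Figure D4:**
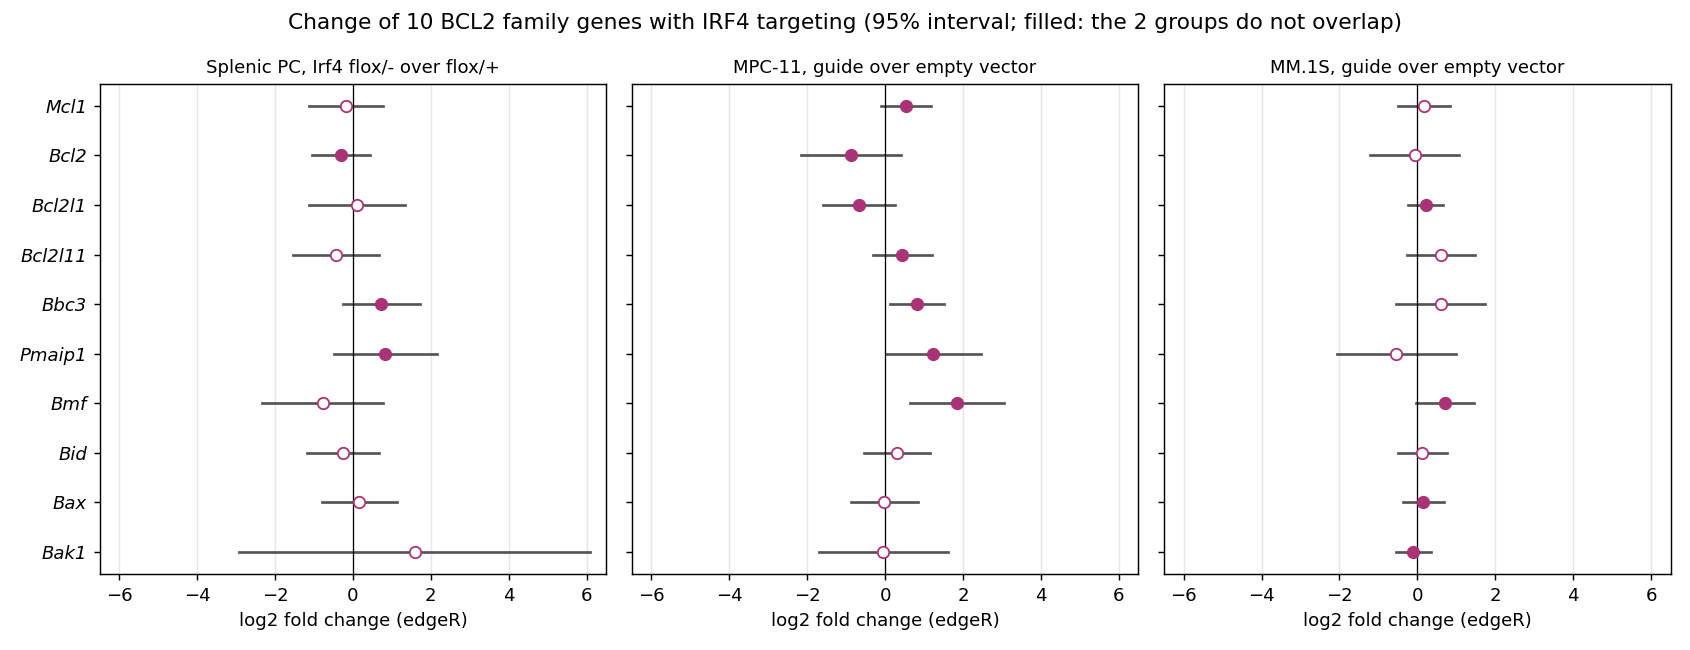
Log2 fold changes (edgeR) of the 10 members in the 3 comparisons, with 95% intervals as lines; filled points mark members whose 2 groups of 2 libraries do not overlap. Bmf lies to the right in MPC-11 (1.85) and in MM.1S (0.71) and to the left in splenic plasma cells (-0.78), where its groups overlap and the value is 0.0028 without flox/+ library a.

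Set side by side, the 3 comparisons share no libraries. Bbc3 had positive values in all 3 (0.73, 0.82 and 0.60), without a call in any. Bmf was at -0.78 in the spleen, 1.85 in MPC-11 and 0.71 in MM.1S, and its splenic value was 0.0028 without flox/+ library a. The difference of effect between MPC-11 and splenic plasma cells was tested over their 8 libraries, and no member passed (0 of 10 in edgeR, where 0.00% of 12993 genes were called, and 0 of 10 in DESeq2, where 1.40% were). Bmf came closest, with a difference of 2.61 ± 0.85 (SE; adjusted p = 0.634 in edgeR and 0.158 in DESeq2), and it was the 1 member with an unadjusted p under 0.05, where 6.21% of genes had one. Differences involving MM.1S were not tested, because its genes sit in a separate table.

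Other genes of the death pathway were read from lists of relatives, caspases, inhibitors and receptors, and edgeR called 0 of them in each of the 3 comparisons of IRF4 targeting. Over all genes it called 0.00% in the spleen, 0.0187% in MPC-11 and 0.00788% in MM.1S. The 7 lists hold the other BCL2 relatives, the apoptosome and caspases, caspase inhibitors, death receptors with their adaptors, MCL1 protein turnover, regulators of family transcription, and p53 targets outside the family. In MPC-11 the turnover list had 8 of 9 tested genes above 0 (median log2 0.33) and the regulators 10 of 14 (0.33), where 48.5% of all genes lay above 0. In MM.1S the death receptor list had 10 of 11 above 0 (0.29) and the p53 targets 9 of 12 (0.49), where 50.7% of all genes did. The caspase list lay near the median of all genes in the spleen (-0.08) and MPC-11 (-0.02), and at -0.17 in MM.1S. Among the other BCL2 relatives in the spleen, 7 of 12 tested were higher and 5 lower, where 54.3% of all genes were higher. DESeq2, which called 5.34% of all genes, called Bcl2a1a alone. This survival gene had 247 and 19 counts with flox/- against 0 and 0, at least 49.7-fold higher from a floor of 3 counts over the flox/+ group. Without flox/- library 1 the bound was 7.15-fold, and without flox/- library 2 it was 91.6-fold. Its near-identical copies Bcl2a1b and Bcl2a1d can share reads with it, so the split between copies is uncertain. Bcl2a1b overlapped between the genotypes (mean 8.16 CPM with flox/- against 5.71, DESeq2 adjusted p = 0.936). Bcl2a1d was higher in both flox/- libraries and did not pass (mean 3.05 against 0.678, DESeq2 adjusted p = 0.460). Tnfrsf1b, a TNF receptor of immune cells, stood at 66.7 and 33.9 CPM against 9.12 and 4.71 (DESeq2 adjusted p = 1.67e-04). For Bcl2a1a and Tnfrsf1b the flox/- library with the higher macrophage marker sum (8109 CPM, all 10 markers detected) held the higher value. The part of other cells in these genes was not tested. The genes with the smallest p in the other lists were Apaf1, Birc5, Bag6, Myc and the p53 target Sesn1. Apaf1, which builds the apoptosome, stood at 8.72 and 8.72 CPM against 3.33 and 1.69. Birc5, of the caspase inhibitor list, stood at 3.68 and 2.07 against 0.234 and 0. Bag6 stood at 22.5 and 15.1 against 12.8 and 8.21. Myc stood at 15.4 and 21.1 against 6.61 and 5.45, and Sesn1 at 36.8 and 33.0 against 59.4 and 50.3. None of these passed in edgeR or DESeq2.

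In the cell lines the list genes that DESeq2 called lay in receptors, p53 targets and regulators. Tnfrsf17, which encodes BCMA, a receptor whose signal sustains MCL1 in plasma cells, was lower with the guide in MPC-11 (120 and 109 CPM against 345 and 264; DESeq2 adjusted p = 9.32e-04) and in MM.1S (170 and 138 against 442 and 638; DESeq2 adjusted p = 2.39e-10), and edgeR called neither (adjusted p = 0.449 and 0.162). The log2 fold changes of Mcl1 in the same libraries were 0.55 and 0.17. Tnfrsf17 was also lower in both flox/- splenic libraries (mean 31.2 CPM against 57.9, DESeq2 adjusted p = 0.169), where Mcl1 was at -0.18. A relation between Tnfrsf17 and Mcl1 was not tested. In MM.1S the death receptor FAS stood at 19.8 and 21.2 CPM against 5.32 and 4.93 (log2 2.00 ± 0.35; edgeR adjusted p = 0.220, DESeq2 adjusted p = 0.00134). MLKL, which executes necroptosis, stood at 12.9 and 11.4 against 3.08 and 2.33. The p53 targets PHLDA3 (31.6 and 36.6 against 10.03 and 5.86) and ZMAT3 (9.78 and 11.7 against 1.54 and 1.19) were higher, and the stress regulator ATF4 (145 and 121 against 351 and 193) was lower, each called by DESeq2. Of the 12 p53 targets, 9 had log2 fold changes above 0 and 3 below: CDKN1A (-0.16), PERP (-0.03) and SESN2 (-0.81). MLKL, ZMAT3, ATF4, CDKN1A, PERP and SESN2 were named after their values were seen. In MM.1S, DESeq2 called 2 of 12 tested p53 targets outside the family and 2 of 11 death receptor genes, where it called 2.95% of 12696 genes. In MPC-11 it called 0 of 10 and 0 of 9, where it called 1.49% of 10670 genes. There Cdkn1a stood at 373 and 383 CPM against 233 and 198, Casp8 at 60.1 and 92.7 against 39.1 and 37.2, Birc3 at 112 and 89.6 against 70.1 and 60.6, Mapk9 at 38.2 and 26.1 against 18.7 and 20.1, Bcl2l14 at 4.24 and 0 against 13.9 and 11.9, and Mlkl at 0 and 0 against 1.31 and 0.862, at least 13.9-fold lower. The smallest-p genes of the remaining lists in MM.1S, BCL2L12, DIABLO, BIRC3 and MAPK9, had log2 fold changes of -0.40, -0.52, 0.66 and -0.28 and did not pass.

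For 3 members the genes of most similar pattern were sought among 7389 mouse genes with a mean of at least 10 CPM, as the root mean square difference of centred log2 means over the 6 mouse groups. Rrn3, Xpnpep1 and Usp10 lay nearest to Mcl1 (0.10, 0.13 and 0.14), Dgke, Btg2 and Rnaset2b to Bcl2l11 (0.26, 0.29 and 0.37), and Irf7, Mpeg1 and Leprot to Bcl2 (0.60, 0.66 and 0.67). No gene followed Bcl2 as closely as others followed Mcl1, whose own pattern varied less (SD of 0.55 against 2.14 for Bcl2). With 6 groups, of which 2 are single libraries, these distances describe the libraries only.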

How the data were processed

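RNA of 14 libraries was read from gene tables. Counts, deposited by the authors, are whole, unnormalised read numbers per gene in 1 mouse and 1 human table; entries without a symbol (958 and 450, at most 0.306% of a library) were left out. The authors also deposited log2 FPKM values per library; their quartiles are nearly equal across libraries, the labels do not say which normalisation gave them, and they served for levels between genes and as an alternative. Subread 1.6.0, limma, featureCounts, mm10 and hg38 are named, per the submitters' processing notes; annotation and strand setting are not given in the sources used here. The 2 flox/+ count columns share a name and are called a and b; they were not matched to FPKM replicates 1 and 2.

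Groups followed the labels. edgeR 4.0.16 fitted each comparison separately (in R 4.3.3; TMM scaling, filterByExpr with a minimum count of 10, quasi-likelihood F test, Benjamini-Hochberg adjustment over all genes tested, threshold 0.05). CPM are TMM-scaled within a comparison unless stated. Fold changes are targeted over control, with SE from the fit. Alternatives were DESeq2 1.42.0, other scalings, no filter, no immunoglobulin genes, limma 3.58.1 on log2 FPKM, all 10 mouse libraries, a replicate block and each library left out; scripts were tested on simulated data. Libraries of one group differed by 39.2 to 277 times counting error (chi-square per degree of freedom, over genes together). Genes of high count weigh most in that value. It does not describe genes of few counts such as Bak1, where depth also limits precision. Named were the 10 members, IRF4, the gene of smallest p in each list and nearest patterns. Genes called by DESeq2, and the p53 targets below 0 in MM.1S, were added after their values were seen. Members and lists were chosen with earlier results of these data known.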

Additional observations from a re-analysis of the deposited data

Results flagged for a closer look

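BCL2L1 differed in direction between the cell lines. In MPC-11 both guide libraries lay below both controls (log2 fold change -0.68), and in MM.1S both lay above both controls (0.21). Neither value passed in edgeR, and the difference between the lines was not tested.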

How the results depend on the processing

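With 2 libraries per group, p-values are limited by the spread between libraries. In splenic plasma cells 0 members were called under each of the 11 alternatives run. In MPC-11, DESeq2 called 1 and the other 11 called 0. In MM.1S the count ran from 0 to 2 with each library left out and was 0 otherwise. Between MPC-11 and flox/+ cells it ran from 1 to 2 with each library left out and was 7 with library size alone. BMPC over FoB had 8 members past 2-fold with library size alone (1 higher and 7 lower), where 84.7% of genes were (11.6% higher and 73.0% lower). The cause of these shifts was not tested, apart from the scaling, which moved the median of all genes (log2 0.98 in the spleen, -0.18 in MPC-11, 0.02 in MM.1S, 1.86 for MPC-11 over flox/+, -1.16 for the difference of effect and -1.96 for BMPC over FoB). Over all genes, calls in the spleen numbered 0 in edgeR, 635 in DESeq2 and 5 with all 10 mouse libraries. In MPC-11 they numbered 2 in edgeR, 159 in DESeq2, 32 without a filter, 6 with all 10 mouse libraries, 0 with the replicate block, library size alone or log2 FPKM, and 1 to 37 with each library left out. In MM.1S they numbered 1 in edgeR, 374 in DESeq2, 289 without a filter, 208 with the replicate block, 9 with log2 FPKM and 0 to 966 with each library left out. For MPC-11 over flox/+ they numbered 3175, then 6385 with library size alone and 1472 to 3081 with each library left out, and for the difference of effect 0 in edgeR and 182 in DESeq2.

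Directions turned with library size alone in the spleen for Mcl1 (0.72), Bcl2 (0.60), Bcl2l11 (0.45), Bmf (0.071) and Bid (0.67); for MPC-11 over flox/+ in Bcl2l11 (0.63), Bax (0.20) and Pmaip1 (1.89); for the difference of effect in Mcl1 (-0.32), Bcl2l11 (-0.15), Bbc3 (-0.94), Pmaip1 (-0.67) and Bid (-0.57); and for BMPC over FoB in 7 members, Mcl1 (-1.29), Bcl2 (-1.52), Bcl2l1 (-0.11), Bcl2l11 (-1.53), Bak1 (-0.86), Pmaip1 (-1.28) and Bmf (-1.22). With limma on log2 FPKM, Mcl1 (0.0074) and Bcl2l1 (-0.10) turned in the spleen and Bax (0.014) in MPC-11. With the replicate block, Bax (0.0071) and Bak1 (0.0028) turned in MPC-11 and BCL2 (0.059) in MM.1S; these replicate numbers are shared names only, the block called 0 members in either line, and with the splenic libraries no blocked fit was run because the flox/+ count columns carry no separate numbers.

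With each library left out, values ran across 0 in the spleen for Mcl1 (-0.50 to 0.21), Bcl2l1 (-0.17 to 0.42), Bcl2l11 (-0.87 to 0.17), Bax (-0.17 to 0.60), Bmf (-1.29 to 0.0028) and Bid (-0.59 to 0.020). They did so in MPC-11 for Bax (-0.25 to 0.28), Bak1 (-0.44 to 0.51) and Bid (-0.020 to 0.63), and in MM.1S for MCL1 (-0.13 to 0.51), BCL2 (-0.59 to 0.71), PMAIP1 (-1.14 to 0.43) and BID (-0.14 to 0.45). For MPC-11 over flox/+ this held for Pmaip1 (-0.33 to 0.28), Bmf (-0.34 to 1.23) and Bid (-0.0057 to 0.51), and for the difference of effect for Bax (-0.69 to 0.21), Bbc3 (-0.22 to 0.33) and Pmaip1 (-0.20 to 0.83). The direction of Bcl2, Bbc3, Pmaip1 and Bak1 in the spleen and of Mcl1, Bcl2, Bcl2l1, Bcl2l11, Bbc3, Pmaip1 and Bmf in MPC-11 held without each library.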
